A study of Mus musculus with 20 samples.

Results

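Smooth muscle contracts when myosin pulls on actin filaments, and the genes for this machinery are also switched on in pericytes, in myoepithelial cells of the mammary gland and in activated fibroblasts. Every cell builds a simpler version of the same cytoskeleton from the ubiquitous actins and tropomyosins, which form stress fibers anchored at focal adhesions. Many genes of both kinds are targets of serum response factor (SRF), a transcription factor that binds the CArG box and whose coactivators of the MRTF family respond to the pool of free actin. The 10 genes described here are Acta2, Tagln, Cnn1, Myl9, Tpm1, Tpm2, Actb, Dbn1, Trip6 and Cald1, taken from the 45706 genes in the count files. They were picked by name for the pattern of their scaled counts over the 6 groups of samples. Their levels and the differences between groups are therefore given as a description, without a test, and tests are given only for genes outside this set.

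All mice and cells carried the PyMT oncogene, which drives mammary carcinomas, on a C57BL/6 N background. Tumors came from 18-week-old mice, 4 controls with functional Ctsd and 4 MMTV-cre;Ctsd-/- animals, in which Cre under the MMTV promoter removes Ctsd, the gene of the lysosomal protease cathepsin D, from mammary epithelium and leaves it in the stroma. Cells were a Ctsd+/+ and a Ctsd-/- tumor cell line, each spontaneously immortalized from tumor cells, with 3 samples per group. They were grown in medium with 1% fetal calf serum, a mild starvation, for 10 days (1% FCS) or for 12 weeks (1% FCS LT). A difference between genotypes in cells is thus also a difference between 2 lines, and these cannot be told apart. The study's methods describe the 3 samples of a group as independent experiments, all on the same line, so p-values in cells measure the spread between experiments and not between lines or mice.

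Tumor libraries held 49725437 to 64291587 reads on genes, and cell libraries 33622831 to 40239762. Levels are CPM, counts scaled to library size within tumors and within cells, and levels of different genes are compared only per kilobase of exon. Ctsd had a mean of 2198 CPM in control and 921 CPM in MMTV-cre;Ctsd-/- tumors. In cells its mean was 2775 and 1730 CPM in both Ctsd+/+ groups and 155 and 129 CPM in the Ctsd-/- groups. The labels give each library an LR number, which is not explained. It was 1 number for all control tumors and another for all MMTV-cre;Ctsd-/- tumors, and number and genotype cannot be told apart there. Summed skeletal muscle markers reached 1113 CPM in control tumor 4 and 270 CPM in MMTV-cre;Ctsd-/- tumor 1, against 7.23 to 66.4 CPM in the other tumors. Summed adipocyte markers were 211 to 2161 CPM in control and 1059 to 10830 CPM in MMTV-cre;Ctsd-/- tumors. In bulk RNA, fewer cells of a type and less RNA per cell cannot be told apart.

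Promoter sequences of 8 of the 10 genes were found in the RefSeq table for GRCm38.p6. They were searched on both strands for the CArG box (CC, then 6 letters that are A or T, then GG), for a CArG-like box with exactly 1 C or G among those 6 letters, for GGAATG (the core bound by TEAD factors), for TGACGTCA (bound by CREB) and for TATAAA. Of all 32851 promoters in the table, of the same length, 1.63% held a CArG box, 8.5% the CArG-like box, 14.7% GGAATG, 1.79% TGACGTCA and 13.6% TATAAA. The promoters of Acta2, Myl9 and Trip6 are shown because they held the CArG and CArG-like matches found among the 10 genes. Each runs 5′ to 3′ from 170 bases before to 30 bases after the transcription start, with the matched letters in capitals.
Acta2 (chr19:34255344-34255543, minus strand): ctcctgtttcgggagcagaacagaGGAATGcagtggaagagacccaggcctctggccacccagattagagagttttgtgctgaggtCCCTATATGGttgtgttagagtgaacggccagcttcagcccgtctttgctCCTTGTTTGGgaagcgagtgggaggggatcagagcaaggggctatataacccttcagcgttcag
Myl9 (chr2:156775294-156775493, plus strand): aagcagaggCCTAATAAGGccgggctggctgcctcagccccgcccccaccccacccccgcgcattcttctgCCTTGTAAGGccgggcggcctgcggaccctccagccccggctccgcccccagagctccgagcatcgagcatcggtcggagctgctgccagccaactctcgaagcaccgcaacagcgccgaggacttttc
Trip6 (chr5:137314212-137314411, minus strand): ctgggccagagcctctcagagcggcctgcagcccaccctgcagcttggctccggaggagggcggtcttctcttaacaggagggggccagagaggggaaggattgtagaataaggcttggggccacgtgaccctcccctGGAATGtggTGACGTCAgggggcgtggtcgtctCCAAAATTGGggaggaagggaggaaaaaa
Acta2 held GGAATG 146 bases before the start and 2 CArG-like boxes, 84 and 34 bases before it. Myl9 held a CArG box 161 bases before the start and a CArG-like box 99 bases before it. Trip6 held GGAATG 32 bases and TGACGTCA 23 bases before the start, and a CArG box 2 bases after it. Of the other genes, Tpm1 held GGAATG at -56, the first of 2 Cald1 promoters held it at -153 and the second held TATAAA at -186. No match was found in the windows of Cnn1, Tpm2 and Dbn1. Tagln and Actb had no entry.

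Acta2 (ENSMUSG00000035783, chr19:34241090-34255590, minus strand) encodes smooth muscle alpha actin, the actin of contractile cells. In the 4 control tumors it measured 666, 686, 546 and 290 CPM, and in the 4 MMTV-cre;Ctsd-/- tumors 359, 538, 1024 and 676 CPM. The genotypes overlapped, with the lowest value in control tumor 4 and the highest in MMTV-cre;Ctsd-/- tumor 3. The 3 samples of 1% FCS Ctsd+/+ cells held 5.01, 53.9 and 25.6 CPM (167, 1765 and 977 reads), a mean of 28.2 ± 24.5 CPM (SD, n = 3). On the strand used for cells, no read of Acta2 was counted in any of the 3 samples of 1% FCS Ctsd-/- cells. There, 3 reads over the group would correspond to 0.0269 CPM. Regardless of strand, samples 1 and 3 of this group held 1 read each. With such counts the fitted log2 fold change between genotypes in 1% FCS went from -13.05 to -10.36. After 12 weeks, 2 reads on the strand used were left over the 3 Ctsd+/+ samples and 1 read over the 3 Ctsd-/- samples. By the counts on that strand, Acta2 was therefore at least 1036-fold lower in Ctsd-/- than in Ctsd+/+ cells in 1% FCS. The fall in Ctsd+/+ cells from 10 days to 12 weeks corresponded to a ratio of summed counts of 1589, with a 95% exact counting interval of 440 to 13130. Such intervals cover counting error only, and the 3 Ctsd+/+ samples themselves spanned 10.8-fold.

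Myl9, the regulatory light chain of smooth muscle and non-muscle myosin, had a pattern close to that of Acta2. Control tumors held 177, 185, 173 and 83.3 CPM, and MMTV-cre;Ctsd-/- tumors 111, 140, 225 and 161 CPM. Control tumor 4 was again the lowest and MMTV-cre;Ctsd-/- tumor 3 the highest of the 8. In cells, Myl9 measured 5.46, 26.1 and 14.6 CPM in 1% FCS Ctsd+/+ and 0.146, 0.356 and 0.148 CPM in 1% FCS Ctsd-/- samples, a ratio of 71.0 (counting interval 47.5 to 111). In 1% FCS LT cells the order was the opposite, at a low level, with 3 reads in the Ctsd+/+ group against 62 reads in the Ctsd-/- group. The Ctsd-/- samples then held 0.623, 0.850 and 0.0726 CPM and the Ctsd+/+ samples 0.0270, 0 and 0.0507 CPM, and the ranges did not overlap.

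Cnn1, or calponin 1, and Tagln, or transgelin (SM22α), are actin-binding proteins used as markers of differentiated smooth muscle. Cnn1 held 83.6, 147, 108 and 61.2 CPM in control tumors and 71.1, 103, 190 and 123 CPM in MMTV-cre;Ctsd-/- tumors. In cells it was low everywhere, with 0.360, 1.10 and 0.942 CPM in 1% FCS Ctsd+/+ samples and at most 0.103 CPM in any sample of the other 3 groups. Its summed counts were 84 reads in 1% FCS Ctsd+/+ and 4 reads in 1% FCS Ctsd-/- cells, a ratio of 22.4 (counting interval 8.44 to 84.3). Tagln measured 296, 290, 343 and 285 CPM in control and 182, 215, 369 and 181 CPM in MMTV-cre;Ctsd-/- tumors. Its control tumors lay closer together (CV 8.86%) than those of Acta2 (CV 33.3%), and 3 of the 4 MMTV-cre;Ctsd-/- tumors lay below every control. In 1% FCS Ctsd+/+ cells Tagln held 1.95, 10.8 and 5.26 CPM, and no sample of the other 3 cell groups exceeded 0.127 CPM. The ratio between genotypes in 1% FCS was 73.7 (counting interval 38.6 to 162).

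The strand of the reads limits what Tagln can show. The last 108 bases of the Tagln locus (chr9:45929619-45929726) also belong to Pcsk7, a protease gene on the other strand. Reads on both genes are left out of counts regardless of strand, but most reads on the other strand stayed in them. Sample 3 of 1% FCS Ctsd-/- cells had 103 reads there, 0 on the strand used and 94 regardless of strand. Of the Tagln reads with a strand, 69.0% lay on the strand used for cells in 1% FCS Ctsd+/+ samples, against 2.59% in 1% FCS Ctsd-/-, 2.59% in 1% FCS LT Ctsd+/+ and 3.44% in 1% FCS LT Ctsd-/- samples. With counts regardless of strand, which add the reads on the other strand, the fitted log2 fold change between genotypes in 1% FCS shrank from -6.18 to -1.56. In addition, 48.3% of the 50-base windows of its spliced sequence also occurred in other genes, mainly in Gm48529, and reads from such stretches can map to several places. For Actb this share was 14.2%, for Acta2 it was 0.352% and for the other 7 genes it was 0.

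The 4 contractile genes thus shared a group order over the cells, with 1% FCS Ctsd+/+ samples above all others. Within that group the samples also kept 1 order for Acta2, Tagln, Cnn1, Myl9, Tpm1, Tpm2 and Dbn1, with sample 1 lowest and sample 2 highest. Actb had its highest value in sample 3 and Trip6 in sample 1, and Cald1 had its lowest in sample 3. Sample 1 had another LR number than samples 2 and 3, as in 1% FCS Ctsd-/- cells. The summed level of 7 fibroblast markers moved with the 4 contractile genes, from 625 to 2613 CPM in 1% FCS Ctsd+/+ samples against 2.54 to 14.6 CPM in all samples of the other cell groups. Of these markers Col1a1, a fibrillar collagen, held 531, 2320 and 1460 CPM, and Col3a1 held 18.4, 265 and 38.3 CPM. Lum and Dpt were at 0 in all 3 samples, and Pi16 was under 1 CPM. Pdgfra, a growth factor receptor of fibroblasts, had another order, with 74.3, 28.1 and 10.9 CPM in samples 1, 2 and 3. Dcn, a matrix proteoglycan, was at 1.86, 0.366 and 0 CPM, so both were highest in sample 1. The sum of 8 smooth muscle and pericyte markers was 578 to 692 CPM in 1% FCS Ctsd+/+, 60.7 to 92.4 CPM in 1% FCS Ctsd-/-, 408 to 592 CPM in 1% FCS LT Ctsd+/+ and 45.2 to 66.5 CPM in 1% FCS LT Ctsd-/- samples. The members of this list did not go together. Mcam held 551, 639 and 526 CPM in 1% FCS Ctsd+/+ cells and at most 35.5 CPM in any other cell sample, and Rgs5 0.654 to 1.65 CPM against at most 0.290 CPM. Notch3, a receptor of mural cells, was at 50.6 to 94.8 CPM in 1% FCS Ctsd+/+ and 385 to 567 CPM in 1% FCS LT Ctsd+/+ samples. Of the others, Cspg4, Des, Kcnj8, Abcc9 and Myh11 were under 1 CPM in all 4 cell groups. Myh11, the smooth muscle myosin heavy chain, was at 0.0973 to 0.507 CPM over the 12 cell samples. The luminal keratins Krt8 and Krt18 had means of 492 and 379 CPM in 1% FCS Ctsd+/+ cells against 3245 and 3572 CPM in 1% FCS Ctsd-/- cells. Summed luminal markers were 878 to 1692 CPM in 1% FCS Ctsd+/+ samples, and 4285 to 4703 CPM in 1% FCS LT Ctsd+/+ samples. Summed myoepithelial and basal markers were 47.0 to 84.2 CPM in 1% FCS Ctsd+/+ and 65.6 to 141 CPM in 1% FCS LT Ctsd+/+ samples. They were 12.2 to 21.7 CPM in 1% FCS Ctsd-/- and 12.7 to 27.2 CPM in 1% FCS LT Ctsd-/- samples. The part of these markers in the levels of the contractile genes was not tested.

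**Figure D1:**
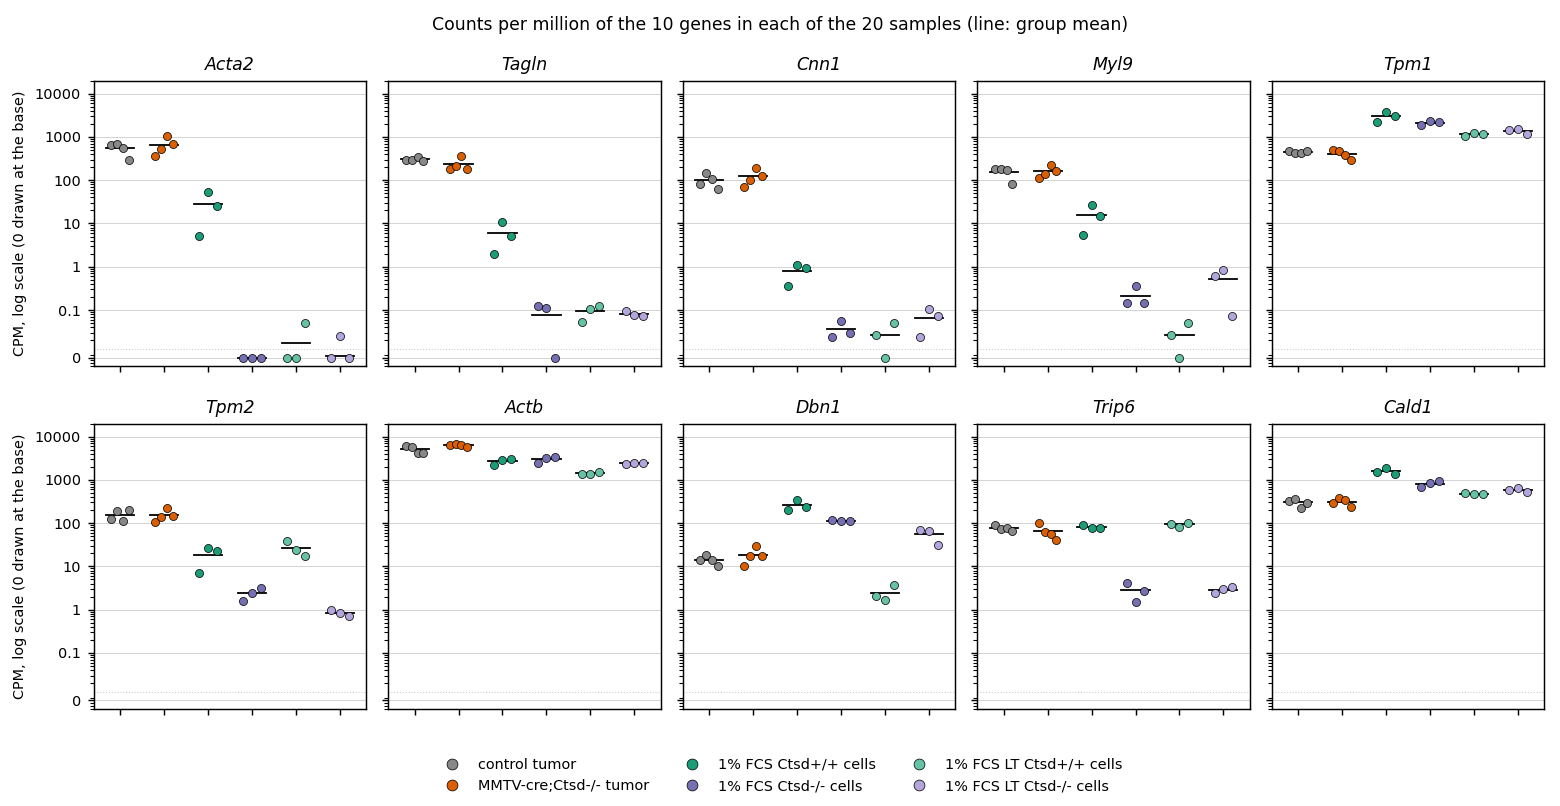
Levels of the 10 genes in all 20 samples, with CPM on a logarithmic axis, 1 point per sample, a line at each group mean and samples without reads drawn at the base. Acta2, Tagln, Cnn1 and Myl9 stood above all other cell groups only in 1% FCS Ctsd+/+ cells, Trip6 was low in both Ctsd-/- groups, and Dbn1 was lowest in 1% FCS LT Ctsd+/+ cells.

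Actb, the cytoplasmic beta actin, was the most abundant of the 10 genes per kilobase in all 6 groups. Control tumors held 5938, 5869, 4190 and 4233 CPM and MMTV-cre;Ctsd-/- tumors 6233, 6722, 6282 and 5870 CPM. The genotypes overlapped by a single value, since only MMTV-cre;Ctsd-/- tumor 4 lay below the highest control, and they no longer overlapped when all 20 libraries were scaled together. Cells held 2208, 2944 and 3048 CPM in 1% FCS Ctsd+/+ and 2462, 3271 and 3350 CPM in 1% FCS Ctsd-/- samples. After 12 weeks the values were 1345, 1342 and 1516 CPM in Ctsd+/+ and 2316, 2511 and 2463 CPM in Ctsd-/- cells, 1.73-fold higher in Ctsd-/- by summed counts, with no overlap. Actb is often used as a reference gene, and its group means in cells spanned 1401 to 3028 CPM.

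Per kilobase, Actb made up 71.5% ± 3.2 (SD, n = 4) of the 6 actins in control tumors and 73.8% ± 2.1 (SD, n = 4) in MMTV-cre;Ctsd-/- tumors. Acta2 supplied 9.40% and 9.28% there, and 0.762% ± 0.636 (SD, n = 3) in 1% FCS Ctsd+/+ cells. The cytoplasmic gamma actin Actg1 took most of the rest in cells. Its share was 34.4% and 37.3% in both Ctsd+/+ groups and 25.1% and 21.3% in the Ctsd-/- groups. The share of Actb was the reverse, with 64.8% and 62.7% in Ctsd+/+ against 74.8% and 78.7% in Ctsd-/- cells, and the samples of the genotypes did not overlap at either time. In these shares a rise of 1 gene lowers the other, and Actg1 itself was not called in either genotype comparison.

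**Figure D2:**
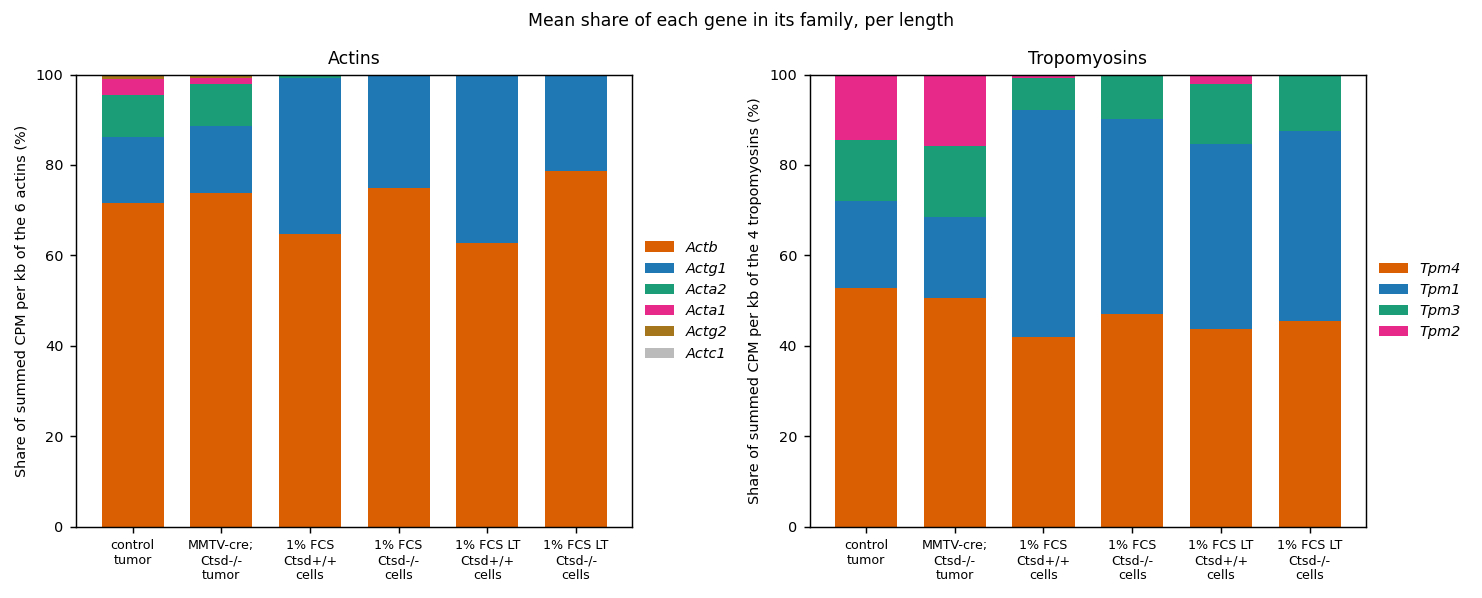
Mean share of each gene in the summed CPM per kilobase of the 6 actins (left) and the 4 tropomyosins (right), in percent, for the 6 groups. Acta2 and Tpm2 took a visible share in tumors, while in cells nearly all actin was Actb and Actg1 and Tpm2 stayed at or below 2.09%.

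Tropomyosins wind along actin filaments and control which myosins and binding proteins reach them. Tpm1 measured 471, 428, 423 and 472 CPM in control and 487, 460, 376 and 289 CPM in MMTV-cre;Ctsd-/- tumors. It was higher in cells, with 2183, 3689 and 3087 CPM in 1% FCS Ctsd+/+ and 1899, 2282 and 2254 CPM in 1% FCS Ctsd-/- samples. After 12 weeks it held 1062, 1205 and 1161 CPM in Ctsd+/+ and 1417, 1547 and 1185 CPM in Ctsd-/- samples. Genotypes overlapped at both times, and each line was lower at 12 weeks than at 10 days without overlap. Tpm2, the beta tropomyosin typical of muscle, differed by genotype instead. Its values were 6.96, 26.3 and 22.4 CPM in 1% FCS Ctsd+/+ against 1.56, 2.41 and 3.22 CPM in 1% FCS Ctsd-/- samples. In 1% FCS LT cells they were 37.9, 24.0 and 17.0 CPM in Ctsd+/+ against 0.982, 0.850 and 0.726 CPM in Ctsd-/- samples. The ratio of summed counts was 7.98 (counting interval 7.01 to 9.11) in 1% FCS and 30.6 (25.2 to 37.6) in 1% FCS LT. Unlike the 4 contractile genes, Tpm2 stayed up in Ctsd+/+ cells at 12 weeks, where its range overlapped that at 10 days. Tumors held 123, 186, 115 and 199 CPM in controls and 106, 141, 224 and 149 CPM in MMTV-cre;Ctsd-/- animals, and Tpm2 was 14.5% and 15.8% of the 4 tropomyosins per kilobase in them.

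Cald1, or caldesmon, binds actin and tropomyosin and holds back myosin. It measured 328, 368, 224 and 293 CPM in control and 293, 378, 347 and 242 CPM in MMTV-cre;Ctsd-/- tumors, with full overlap. Cells held 1498, 1925 and 1328 CPM in 1% FCS Ctsd+/+ and 690, 853 and 925 CPM in 1% FCS Ctsd-/- samples. After 12 weeks the values were 508, 468 and 467 CPM in Ctsd+/+ and 597, 652 and 518 CPM in Ctsd-/- samples. Cald1 was thus lower in Ctsd-/- cells at 10 days and slightly higher at 12 weeks, and the ranges were apart both times.

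Dbn1, or drebrin, binds and bundles actin filaments and is best known from dendritic spines of neurons. Control tumors held 14.2, 18.4, 13.8 and 10.3 CPM and MMTV-cre;Ctsd-/- tumors 10.2, 17.6, 29.7 and 17.7 CPM. In 1% FCS it measured 204, 338 and 234 CPM in Ctsd+/+ and 119, 113 and 112 CPM in Ctsd-/- cells. At 12 weeks Ctsd+/+ cells held 2.03, 1.68 and 3.65 CPM and Ctsd-/- cells 68.7, 65.1 and 30.9 CPM. All 4 cell groups were apart from each other, and the genotype with the higher level changed between the times. In Ctsd+/+ cells the ratio of summed counts between 10 days and 12 weeks was 104 (counting interval 92.4 to 117), against 2.10 in Ctsd-/- cells. The fitted log2 difference Ctsd-/- minus Ctsd+/+ was -1.17 (SE 0.31) in 1% FCS and 4.48 (SE 0.37) in 1% FCS LT. Among the samples with the most common LR number alone these were -1.34 and 5.17.

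Trip6, a LIM-domain protein of the zyxin family at focal adhesions, separated the cell lines at both times. Ctsd+/+ cells held 88.8, 79.0 and 77.6 CPM in 1% FCS and 97.4, 82.0 and 100 CPM in 1% FCS LT. Ctsd-/- cells held 4.23, 1.51 and 2.69 CPM and 2.49, 2.93 and 3.27 CPM. The fitted log2 difference Ctsd-/- minus Ctsd+/+ was -4.85 (SE 0.29) in 1% FCS and -5.01 (SE 0.29) in 1% FCS LT, and -5.23 and -5.05 among samples with the most common LR number. Time in culture made little difference in either line, with log2 values of 0.19 (SE 0.24) in Ctsd+/+ and 0.04 (SE 0.27) in Ctsd-/- cells. Tumors did not share the contrast, with 89.3, 74.8, 75.4 and 65.4 CPM in controls and 101, 61.9, 57.1 and 40.4 CPM in MMTV-cre;Ctsd-/- animals. These tumors hold stroma with intact Ctsd, and its part in the level of Trip6 was not tested.

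Set side by side, none of the 10 genes had non-overlapping genotypes in tumors, where 4.15% of all 18617 genes tested did (2.26% higher and 1.89% lower). All 10 passed the filter on low counts in both materials, but Acta2, Tagln and Cnn1 did so in cells only through the 1% FCS Ctsd+/+ samples. Among cells in 1% FCS, 8 genes were lower in Ctsd-/- without overlap, where 27.6% of 15178 genes were and 55.2% did not overlap in either direction, and Actb and Tpm1 overlapped. In 1% FCS LT, Myl9, Actb, Dbn1 and Cald1 were higher in Ctsd-/- (background 27.9%), Tpm2 and Trip6 were lower (26.4%, and 54.2% in either direction) and 4 genes overlapped. From 10 days to 12 weeks, 8 genes were lower in Ctsd+/+ cells, all but Tpm2 and Trip6, where 26.3% of all genes were lower, 27.3% higher and 53.7% either. In Ctsd-/- cells Tpm1, Tpm2, Dbn1 and Cald1 were lower, where 11.9% of all genes were lower, 13.5% higher and 25.4% either. Since the genes were chosen on these values, nothing is read from the counts.

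Ordered by level, Acta2, Cnn1 and Myl9 had the 2 tumor groups on top, then 1% FCS Ctsd+/+ cells, then the other cell groups. Neighboring groups in this order that overlapped were the tumor genotypes and, for Acta2, Tagln and Cnn1, the 3 lowest cell groups. For Myl9 the Ctsd-/- groups overlapped each other, and 1% FCS LT Ctsd+/+ cells lay apart below them. Tpm1, Cald1 and Dbn1 were highest in 1% FCS Ctsd+/+ cells, and for Tpm1 and Cald1 both tumor groups came last. For Trip6 the 4 highest groups, both Ctsd+/+ cell groups and both tumor groups, overlapped in sequence. With all 20 libraries scaled together the order was the same, except that the tumor groups traded places for Tpm2, and Trip6 became apart between the Ctsd+/+ cell groups. Libraries of tumors and cells were counted in different strand modes, so a level in tumors against cells is not tested here.

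Among the 8 tumors, some of the genes went together. Acta2 tracked Myl9 (Pearson's r of log2 CPM = 0.97, n = 8), Dbn1 (0.92) and Cnn1 (0.91), and Cnn1 tracked Dbn1 (0.94). Tagln did not follow them as closely (0.37 with Acta2), and Tpm1 went with Trip6 (0.85) rather than with Acta2 (-0.54). The points share the LR numbers that are also the genotypes, and MMTV-cre;Ctsd-/- tumor 3 is the highest for 5 of these 7 genes. Myh11 was lowest in control tumor 4 (14.1 CPM) and MMTV-cre;Ctsd-/- tumor 1 (27.8 CPM) and highest in MMTV-cre;Ctsd-/- tumor 3 (178 CPM). The summed smooth muscle and pericyte markers, 161 to 462 CPM, and the summed myoepithelial and basal markers, 165 to 926 CPM, were also highest in that tumor. The part of these markers in the levels was not tested, and the correlations are descriptions over 8 tumors.

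**Figure D3:**
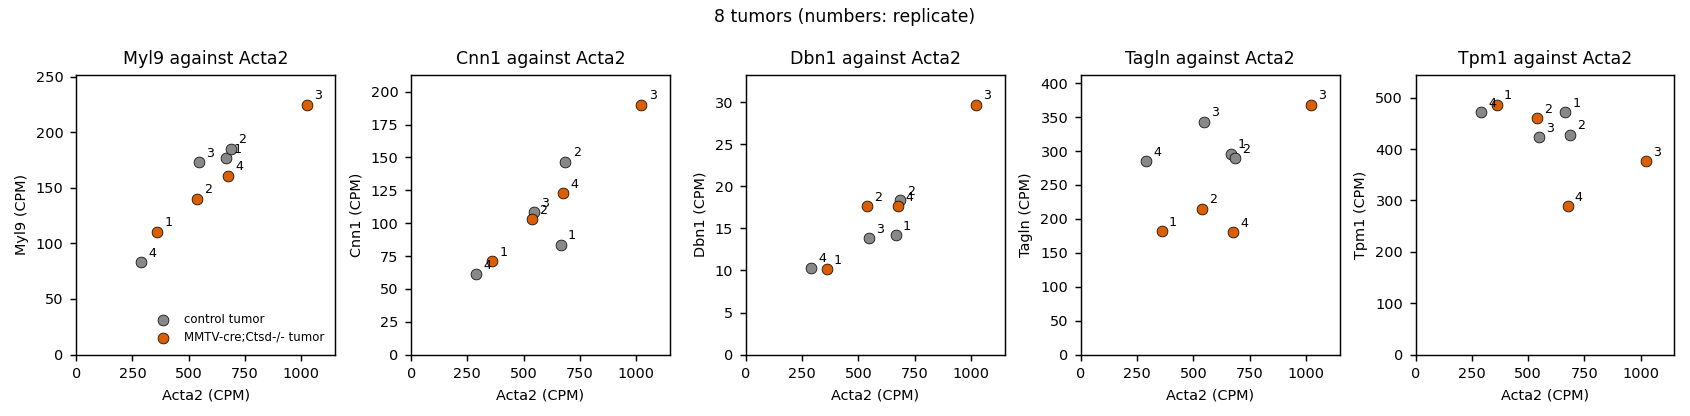
CPM of Myl9, Cnn1, Dbn1, Tagln and Tpm1 against CPM of Acta2 in the 8 tumors, colored by genotype and numbered by sample. Points of both genotypes lie along 1 rising band for Myl9, Cnn1 and Dbn1, from control tumor 4 and MMTV-cre;Ctsd-/- tumor 1 at the low end to MMTV-cre;Ctsd-/- tumor 3.

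To set the 10 genes in their pathway, 131 further genes were taken in 6 lists, and counts over the lists cover all 6. The lists were chosen with earlier results of these data known. A count above the share of all genes is therefore a description and not independent support for a pattern. The 5 lists described here are of smooth muscle genes, paralogs of the 10 genes, SRF with its coactivators and targets, stress fiber and focal adhesion genes and actin assembly and turnover genes. The uncorrected threshold in tumors follows the study's methods. A gene was called in tumors at an unadjusted p under 0.1 and in cells at an adjusted p under 0.05 with an absolute log2 fold change above 1. In tumors 12 of the 130 list genes tested were higher in MMTV-cre;Ctsd-/- and 6 lower, against 8.44% and 8.27% of all genes (16.7% in all). Leaving out 1 tumor at a time gave 8 to 23 higher and 1 to 13 lower. Over all genes these fits gave 980 to 2156 higher and 827 to 2309 lower. Median log2 fold change was 0.17 over the lists and 0.00 over all genes, and the smallest adjusted p among the called list genes was 0.369 (edgeR). Of the 18 smooth muscle genes 4 were called, all higher, among them Aoc3, Synpo2 and Lmod1. Aoc3, an amine oxidase of smooth muscle and adipocytes, had means of 5.11 ± 4.48 CPM in control and 51.4 ± 45.5 CPM in MMTV-cre;Ctsd-/- tumors (log2 fold change 3.33, SE 0.86, adjusted p = 0.403, edgeR). With the adipocyte markers as a covariate its log2 fold change was 0.25 and it was not called. Srf itself was at 18.0 ± 4.51 CPM in control and 28.3 ± 4.42 CPM in MMTV-cre;Ctsd-/- tumors (log2 fold change 0.65, SE 0.23, adjusted p = 0.528, edgeR). Limk1, a kinase that inactivates cofilin, was at 1.40 ± 0.35 CPM and 3.57 ± 0.78 CPM (log2 fold change 1.35, SE 0.33, adjusted p = 0.369, edgeR). Of the 34 actin assembly genes 4 were lower, Tmsb4x and Tmsb10 of the thymosins and Arpc1a and Arpc3 of the Arp2/3 complex, and Gsn and Fscn1 were higher.

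In 1% FCS, 28 of 124 list genes fell in Ctsd-/- against Ctsd+/+ cells and 11 rose, against 14.6% and 10.3% of all genes. The median log2 fold change was -0.25, and 0.00 over all genes. Among 20 SRF genes 7 fell and 1 rose. Egr1, an immediate-early transcription factor, went from 132 ± 29.5 CPM to 12.4 ± 3.79 CPM (log2 fold change -3.40, SE 0.26, adjusted p = 1.33e-06), and Fhl1, a LIM protein of muscle, and Nexn, which binds actin filaments, had log2 fold changes of -3.12 and -3.80. Among 20 stress fiber genes 8 fell and 1 rose. Log2 fold changes were -4.48 (SE 0.28, adjusted p = 3.58e-07) for Csrp2, a LIM protein of smooth muscle, -3.55 (SE 0.42) for Tns1, or tensin 1, and -2.99 (SE 0.54) for Pdlim1. Zyx, or zyxin, after which the family of Trip6 is named, went from 1364 ± 194 CPM to 487 ± 62.0 CPM (log2 fold change -1.49, SE 0.14, adjusted p = 5.76e-06). It was the only one of 17 paralogs called. Smooth muscle genes went both ways, with 6 lower and 4 higher of 15 tested. Actg2, the enteric smooth muscle actin, held 0.95 ± 0.745 CPM in Ctsd+/+ and 0.0342 ± 0.0367 CPM in Ctsd-/- cells, whereas Itga8, the integrin alpha 8 chain, rose by 3.69 (SE 0.30, adjusted p = 2.05e-06).

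Of 32 actin assembly genes 4 fell and 2 rose. Fscn1, or fascin, which bundles filaments in filopodia, went from 596 ± 12.0 CPM to 31.2 ± 2.23 CPM (log2 fold change -4.25, SE 0.40, adjusted p = 5.83e-06). Ezr, or ezrin, which ties actin to the membrane of microvilli, went the other way from 258 ± 27.0 CPM to 935 ± 110 CPM (log2 fold change 1.86, SE 0.13, adjusted p = 6.71e-07). Myh14, a non-muscle myosin heavy chain of epithelia, rose as well (log2 fold change 1.91, SE 0.32, adjusted p = 0.000430). Vcl, or vinculin, and Tln1, or talin 1, which link integrins to actin, were also lower, with log2 fold changes of -1.59 and -1.20.

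In 1% FCS LT the direction was mixed, with 14 of 124 list genes higher in Ctsd-/- and 12 lower, against 9.24% and 10.1% of all genes (19.4% in all), and a median log2 fold change of 0.12. Parvb, or beta parvin of focal adhesions, was at 8.26 ± 3.31 CPM in Ctsd+/+ and 125 ± 16.6 CPM in Ctsd-/- cells (log2 fold change 3.92, SE 0.26, adjusted p = 8.90e-07). Palld, or palladin, Nexn and Pdlim1 were also higher, by log2 values of 2.19, 3.15 and 3.34. Ccn1, a secreted target of SRF and of YAP, was at 67.8 ± 23.2 CPM against 429 ± 165 CPM (log2 fold change 2.66, SE 0.31, adjusted p = 4.33e-05). Some genes kept the direction they had at 10 days. Egr1 was lower again (-3.44, SE 0.26), as were Csrp2 (-2.09), Fscn1 (-2.38) and Vcl (-1.10), and Itga8 was higher again (5.08, SE 0.32). Myocd, or myocardin, the smooth muscle coactivator of SRF, was at 1.35 ± 0.22 CPM in 1% FCS LT Ctsd+/+ cells and at most 0.0638 CPM on average in the other 3 cell groups, so the group with the highest Myocd was one in which Acta2, Cnn1 and Myl9 were near 0.

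Of the comparisons made, long-term culture of Ctsd+/+ cells gave the largest number of list genes called, with 37 of 124 list genes lower at 12 weeks and 7 higher, against 12.3% and 11.0% of all genes (23.4% in all). The median over the lists was -0.53 on the log2 scale. Among SRF genes 11 of 20 fell and 1 rose, and among stress fiber genes 9 of 20 fell and none rose. Log2 fold changes were -6.23 (SE 0.68) for Nexn, -5.14 (SE 0.39) for Fhl1, -4.08 (SE 0.33) for Ccn1, -7.24 (SE 0.71) for Pdlim1, -4.17 (SE 0.26) for Palld and -4.12 (SE 0.44) for Tns1, and adjusted p was between 3.42e-07 and 2.22e-05 for these 6 genes. Of the paralogs Cnn2, Zyx, Acta1, Myl12a and Tpm4 fell, with Cnn2 going from 517 ± 80.1 CPM to 83.8 ± 17.8 CPM. Myh14 (2.41, SE 0.32) and Ezr (1.27, SE 0.13) rose. In Ctsd-/- cells over the same time 1 of 124 list genes was called. It was Acta1, the skeletal muscle actin, which averaged 0.755 CPM at 10 days and 0.0245 CPM at 12 weeks. The call was lost in 3 of the fits that left out 1 Ctsd-/- sample of either time. Of all genes 1.11% were called higher and 0.369% lower (1.48% in all). Zyx, which was not called in Ctsd-/- cells, went from 487 ± 62.0 CPM to 245 ± 20.5 CPM there.

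The difference between the genotype effects at 12 weeks and at 10 days was tested as an interaction. It was called positive for 27 of 124 list genes and negative for 6, against 11.0% and 8.12% of all genes (19.1% in all). Stress fiber genes had 7 positive and no negative calls among 20, and SRF genes 7 positive and 1 negative. Values were 6.95 (SE 0.86) for Nexn, 6.33 (SE 0.86) for Pdlim1, 4.88 (SE 0.57) for Tns1, 3.56 (SE 0.34) for Parvb, 3.54 (SE 0.42) for Ccn1 and 1.42 (SE 0.19) for Zyx on the log2 scale. Adjusted p for these 6 genes was between 2.05e-05 and 0.000238. All cell comparisons of genotype and time share sample groups, and each comparison is given here by its own values.

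**Figure D4:**
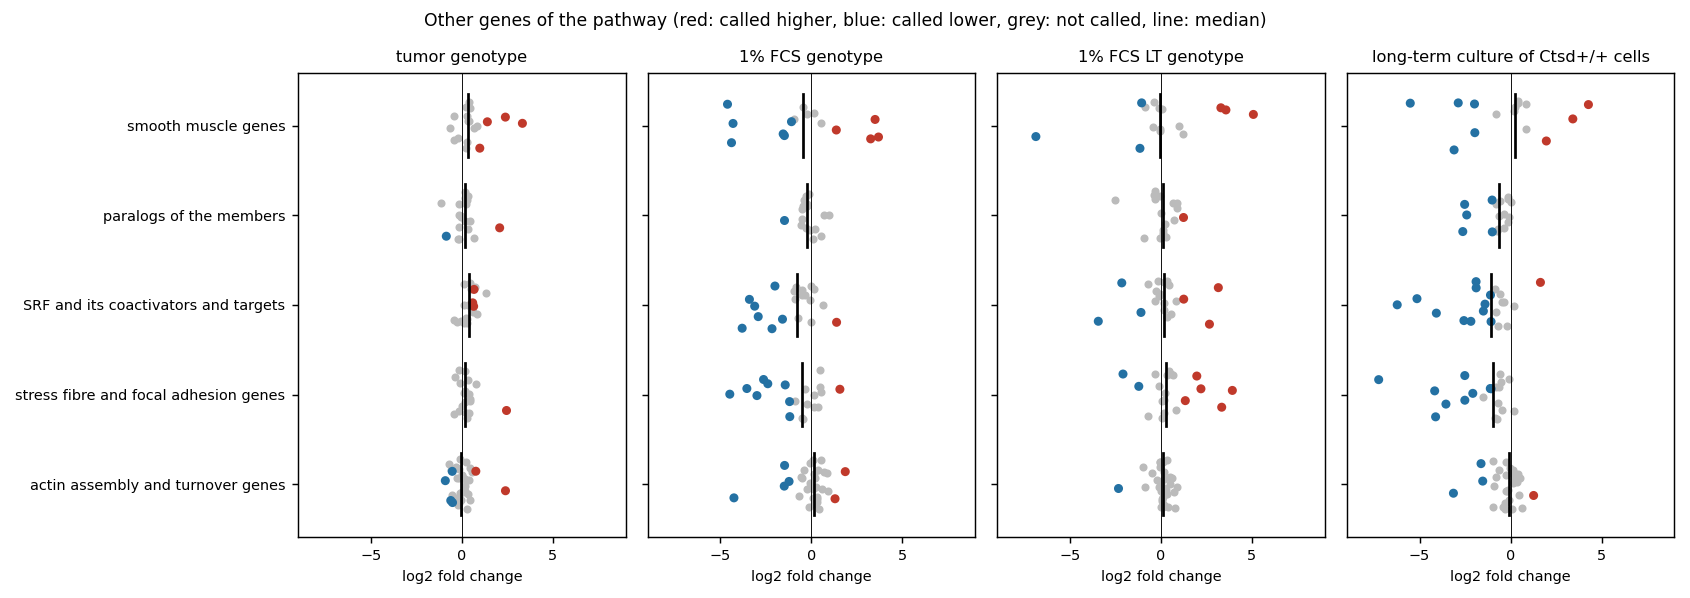
Fitted log2 fold changes of the genes of the 5 described lists in 4 comparisons, Ctsd-deficient minus control for genotype and 12 weeks minus 10 days for culture, with 1 point per gene, called genes in red or blue and the median of each list as a line. Among the called genes of the SRF and stress fiber lists, most are blue at 1% FCS genotype and in long-term culture of Ctsd+/+ cells. Many genes of these lists were not called there, and red and blue points are mixed at 1% FCS LT genotype.

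The genes next to the 10 genes on the chromosome were set beside them in the same comparisons. Of the 60 nearest neighbors tested in cells, 3 on each side of a gene, 17 were called in 1% FCS and 11 in 1% FCS LT between genotypes, against 25.0% and 19.4% of all genes. These counts are near the shares of all genes, so a called neighbor with the sign of its gene is a description only. Called neighbors went both ways, such as Acp5 beside Cnn1 (4.40) and Tgif2 beside Myl9 (-1.43) in 1% FCS, where Cnn1 and Myl9 were lower in Ctsd-/- cells. Around Trip6 the neighbors Srrt, Ufsp1, Gm20768, Slc12a9 and Ephb4 were not called in either genotype comparison, with log2 fold changes from -0.33 to 0.82. Zan, 116 kb away, was higher in Ctsd-/- cells both times (3.79 and 3.31), the opposite direction to Trip6. Next to Dbn1, Prr7, which encodes a small proline-rich protein and lies 12.1 kb away on the other strand, was called with -1.84 (SE 0.42, adjusted p = 0.00381) in 1% FCS, 1.48 (SE 0.48, adjusted p = 0.0272) in 1% FCS LT and -3.67 (SE 0.48, adjusted p = 8.12e-05) in long-term culture of Ctsd+/+ cells. These directions were those of Dbn1. On the other side of Dbn1, Pdlim7, a LIM protein of actin bundles, was called in long-term culture of Ctsd+/+ cells and in no other comparison (-1.07, SE 0.22). Beside Acta2, Fas, the death receptor gene 60.9 kb away, was lower in 1% FCS Ctsd-/- cells (-2.61, SE 0.45, adjusted p = 0.000517) and lower at 12 weeks in Ctsd+/+ cells (-2.21, SE 0.44, adjusted p = 0.00149), and so was Lipa (-1.11 and -1.47). Stambpl1, Ankrd22 and Rnls on the other side of Acta2 were higher in 1% FCS Ctsd-/- cells (1.89, 3.67 and 1.91), and Rnls also in 1% FCS LT (2.03). On the side of Cald1, Akr1b8, 325.7 kb away, was called with the signs of Cald1 in the 3 comparisons given for Prr7 (-1.62, 1.04 and -1.30). It was called higher in long-term culture of Ctsd-/- cells (1.36), where Cald1 was lower. The neighbor of Actb that was called in both genotype comparisons was Fscn1.

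**Figure D5:**
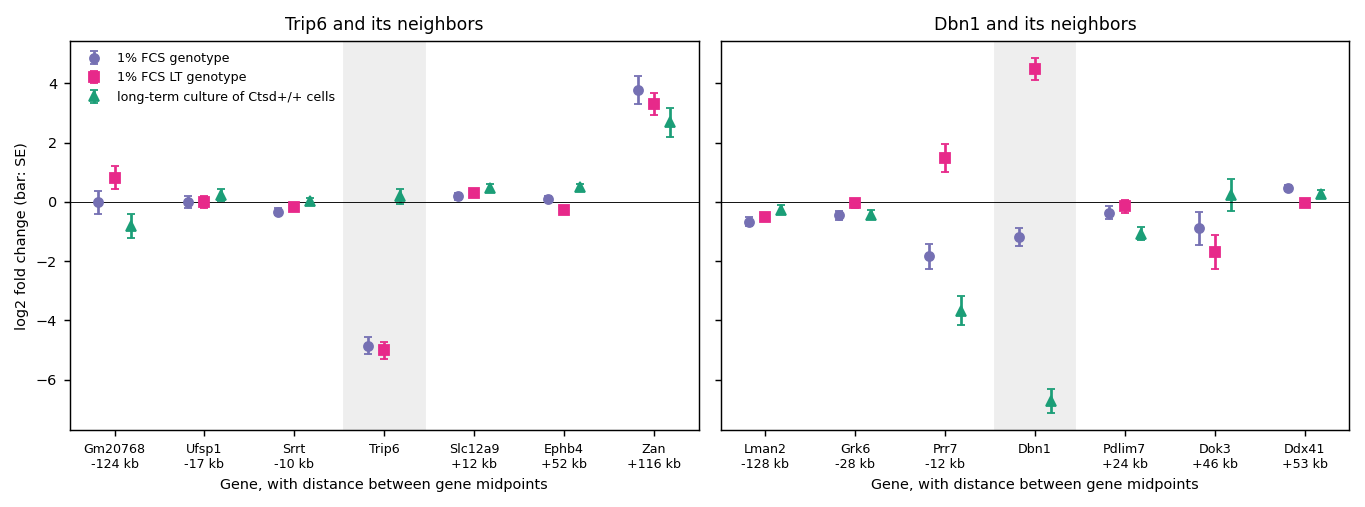
Fitted log2 fold changes with SE of Trip6 (left) and Dbn1 (right) and of the 3 nearest tested genes on each side, in 3 comparisons, with the distance between gene midpoints in kb on the horizontal axis labels. Of the neighbors of Trip6 only Zan was called in the genotype comparisons, with the opposite sign, whereas Prr7 had the same signs as Dbn1 in all 3 comparisons.

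Genes whose levels were most alike over the 12 cell samples were searched among 11788 genes by Pearson's r of log2 CPM, as a description. Nearest to Acta2 were Tll1 (0.99), St8sia2 (0.99), Col3a1 (0.99), C1qtnf6 (0.98) and Grem1 (0.98). Among cells, all 5 were highest in the 1% FCS Ctsd+/+ group, with Grem1, a secreted BMP antagonist, at a mean of 16.6 CPM there and at 0 in both Ctsd-/- groups. In tumors Tll1, St8sia2 and Grem1 had means of at most 0.500 CPM, unlike Acta2. Nearest to Trip6 were Rcbtb1, Gucy1a2, Ccdc28b, Zfp182 and Col4a6, with r of at least 0.99. Col4a6, a basement membrane collagen, averaged 214 and 286 CPM in the Ctsd+/+ groups and 0.554 and 0.359 CPM in the Ctsd-/- groups. Nearest to Dbn1 were Atp5c1, Chsy1, Map3k20, Limd2 and Mtln, with r of 0.98 to 0.99. Among them Limd2, a LIM-domain protein, averaged 72.9, 47.7, 4.30 and 35.3 CPM in 1% FCS Ctsd+/+, 1% FCS Ctsd-/-, 1% FCS LT Ctsd+/+ and 1% FCS LT Ctsd-/- cells. The 12 samples fall into 4 groups, so these values reflect mainly the order of the group levels.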

How the data were processed

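Reads were trimmed (Trimmomatic) and aligned to GRCm38/mm10 (STAR) by the authors, who deposited counts per Ensembl gene and sample, not normalized, as counts regardless of strand, on the gene's strand and on the opposite strand. Reads with several mapping positions, or on several genes, are not in these counts. The annotation release is not given in the sources used here. Symbols and positions came from GENCODE M21, which held 45143 of the 45706 gene identifiers. Counts regardless of strand were used for tumors, where 52.8% to 53.7% of strand-assigned reads lay on the opposite strand, and opposite-strand counts for cells, where 97.1% to 97.3% did.

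Counts were filtered with filterByExpr, scaled with TMM and fitted in R 4.3.3 with edgeR 4.0.16 (glmQLFit, glmQLFTest, two-sided), tumors alone and the 12 cell samples together, and p-values were adjusted by Benjamini-Hochberg over every gene tested. Calls used an unadjusted p of 0.1 in tumors and, in cells, an adjusted p of 0.05 with an absolute log2 fold change above 1. The study used limma. The fit was tested on simulated data first. A fold against a group without reads was computed against 3 counts over the group. Intervals are 95% exact counting intervals. The 10 genes, the gene lists and the tests were chosen with earlier results of these data known. Genes named were all 10, and up to 3 called genes with the largest change and no overlap between groups per list and comparison. Also named were some of the called neighbors, the 5 genes most like Acta2, Trip6 and Dbn1, Ctsd and marker genes. Other list genes named (Lmod1, Synpo2, Tmsb4x, Tmsb10, Arpc1a, Arpc3, Gsn, Vcl, Tln1, Myl12a and Tpm4 among them) were chosen after their values were seen. Alternatives were DESeq2 1.42.0, limma-voom (limma 3.58.1), DESeq2's size factors, no filter, at least 10 counts in every sample, the other strand mode, a replicate block, the most common LR number alone, marker covariates, leaving out tumors high in skeletal muscle markers, and leaving out each sample in turn. Results of 1 gene list and of 1 gene of another list are not reported here.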

Additional observations from a re-analysis of the deposited data

Results flagged for a closer look

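The level of Myl9 in control tumor 4, 83.3 CPM, lay far from the other 3 control tumors (173 to 185 CPM). It was the only such sample in 20 groups of 4 tumors examined for the 10 genes, where chance gives about 1 in 20. The same tumor was highest in skeletal muscle markers (1113 CPM). Its library also had the fewest reads on genes (49725437) and the largest share of reads on several genes (15.57%) of the 8 tumors. The part of the markers or of the library in the value was not tested.

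Genotype differences of 3 of the 10 genes pointed in opposite directions at both times without overlap of the samples, and the difference was not tested because the genes were chosen on these values. The log2 differences Ctsd-/- minus Ctsd+/+ were -6.13 and 4.12 for Myl9, -1.17 and 4.48 for Dbn1, and -0.95 and 0.29 for Cald1, in 1% FCS and 1% FCS LT. For other genes the same difference was tested as an interaction. It was called at 5.27 for Pgm5, -3.43 for Ppp1r14a, 2.67 for Synpo2, 1.63 for Cnn2, 1.42 for Zyx, 6.95 for Nexn, 3.95 for Fhl1, 3.54 for Ccn1, 6.33 for Pdlim1 and 4.88 for Tns1. It was also called at 3.56 for Parvb, 2.22 for Cotl1, 1.88 for Fscn1, -1.72 for Ezr, -3.10 for Myh14, -2.42 for Cdc42ep5 and 2.02 for Rnd3. The call of Synpo2 was lost in most fits without 1 cell sample.

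Counts of Tagln on the strand that was not used for cells numbered 279, 338, 414 and 281 reads in 1% FCS Ctsd+/+, 1% FCS Ctsd-/-, 1% FCS LT Ctsd+/+ and 1% FCS LT Ctsd-/- cells, against 621, 9, 11 and 10 reads on the strand used. The source of these reads was not tested.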

How the results depend on the processing

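The fitted log2 fold changes of the 10 genes kept their sign wherever their groups did not overlap, under all alternatives run. In tumors, with skeletal muscle markers as a covariate 35 list genes were higher and 10 lower, and 20 neighbors were called in place of 10, while the calls over all 18617 genes also went from 1572 to 2750 higher and from 1540 to 2302 lower. Without the 2 tumors highest in these markers, an alternative chosen after seeing the data, 22 were higher, with 1972 higher and 1647 lower over all 18840 genes tested, and with adipocyte markers as a covariate 2 were lower and 3 neighbors called, with 801 higher and 733 lower over all genes. Requiring at least 10 counts in every sample left 108 list genes and 12171 genes in all to test. Of the list genes, 6 were then higher in 1% FCS between genotypes and 3 in long-term culture of Ctsd+/+ cells. Over all genes 935 and 973 were, against 1569 and 1673 of 15178 in the reported fit. In long-term culture of Ctsd-/- cells 0 list genes were lower (33 over all genes, 56 in the reported fit). A negative interaction was called for 3 list genes (876 over all genes, 1232 in the reported fit). Neighbors called were 7 in 1% FCS LT between genotypes, where 830 genes were higher and 843 lower, and 1 in long-term culture of Ctsd-/- cells. In long-term culture of Ctsd-/- cells the reported fit had 0 list genes higher and 1 lower (169 and 56 over all genes). DESeq2 gave 1 and 3 (394 and 106 over all genes) and no filter 1 and 3 (383 and 92). The most common LR number alone gave 1 and 4 (405 and 79). The replicate block gave 2 lower there (63 over all genes). Same-numbered samples of both genotypes also had the same LR number at each time. The correlation of their deviations from the group means ran from -0.14 to 0.36 over all groups and was not above 0.1 in every pair, so the samples were not treated as paired. Between genotypes in 1% FCS it averaged 0.25, against -0.13 for samples with different numbers. Each Ctsd+/+ sample there correlated best with the Ctsd-/- sample of its own number, a hint from the data. The reverse did not hold throughout, since Ctsd-/- sample 2 correlated better with Ctsd+/+ sample 3 than with its own number. With the block, calls between genotypes were 11 higher and 27 lower in 1% FCS and 14 and 12 in 1% FCS LT, and it changed no other count of calls by over 1.5 times, but Synpo2 lost its interaction call. Leaving out 1 sample at a time gave 8 to 23 list genes higher, 1 to 13 lower and 5 to 16 neighbors called in tumors. Over all genes the same fits gave 980 to 2156 higher and 827 to 2309 lower. The count of higher list genes passed 1.5 times the reported one without control tumor 1 (19) or 2 (20) or MMTV-cre;Ctsd-/- tumor 1 (23). The count of lower list genes moved as far without control tumor 1 (10), 3 (1) or 4 (3) or MMTV-cre;Ctsd-/- tumor 1 (13), 2 (2), 3 (3) or 4 (1), and that of neighbors without control tumor 2 (16) or 3 (5) or MMTV-cre;Ctsd-/- tumor 3 (6) or 4 (5). In cells the ranges were 9 to 12 higher and 27 to 29 lower in 1% FCS, 13 to 16 and 11 to 16 in 1% FCS LT, 6 to 7 and 33 to 41 in long-term culture of Ctsd+/+ cells, 0 to 1 and 0 to 3 in that of Ctsd-/- cells, and 25 to 29 and 5 to 6 for the interaction, with 0 to 2 neighbors called in long-term culture of Ctsd-/- cells. Over all genes these fits gave 1512 to 1620 higher and 2072 to 2392 lower in 1% FCS. In 1% FCS LT they gave 1231 to 1470 and 1381 to 1703. Long-term culture of Ctsd+/+ cells had 1550 to 1763 and 1763 to 1977, and that of Ctsd-/- cells 27 to 233 and 20 to 78. The interaction had 1484 to 1758 and 1072 to 1344. The cause of these shifts was not tested.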
